A study of Mus musculus with 7 samples.

Results

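The mammalian circadian clock is a feedback loop of transcription that runs in nearly every cell. Arntl (also called Bmal1) pairs with Clock or with its relative Npas2 and switches on the *Per* and *Cry* genes, whose proteins return to the nucleus and block that pair. In a second loop the nuclear receptors Nr1d1 and Nr1d2 (Rev-erb alpha and beta), themselves switched on by the pair, repress *Arntl* and *Npas2*, and *Dbp*, a PAR bZIP transcription factor, carries the rhythm to output genes. In most tissues of the mouse the transcripts of *Nr1d1*, *Dbp* and *Per3* therefore peak at another time of day than those of *Arntl* and *Npas2*, and the mammary gland has a rhythm of this kind.

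The 10 core clock and clock output genes *Arntl*, *Npas2*, *Clock*, *Per1*, *Per2*, *Per3*, *Cry1*, *Nr1d1*, *Nr1d2* and *Dbp* were taken by name from 37310 genes counted by RNA-seq in whole mammary glands at lactation day 1 (L1). Of the 7 C57BL/6 glands, 3 were labelled WT (*Tardbp* wt/wt with WAP-Cre) and 4 *Tardbp* KO (*Tardbp* fl/fl with WAP-Cre), so that both genotypes carried the Cre transgene. In KO glands, Cre under the promoter of whey acidic protein, active in luminal epithelial cells from mid pregnancy, removes exons 2 and 3 of the gene of TDP-43, and the other cells of the gland keep it. The age of the mice and the hour at which glands were collected are not given in the sources used here, and the question put to the clock genes was whether the glands, or the genotypes, differed in the state of the clock.

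Libraries held 36007737 to 42811337 counts on genes, and the lowest count of a clock gene in a library was 79, so that counting error was small beside the differences between glands. *Tardbp* itself stood at 187 ± 32.6 CPM (counts divided by the TMM-scaled library size; SD, n = 3) in WT and at 188 ± 28.2 CPM (SD, n = 4) in KO, and counts per gene do not check the deletion of 2 exons. The 6 markers of luminal epithelium summed to 2623 to 3838 CPM over all libraries. Of these, 2 had every KO library above every WT library and 1 had every KO library below. Among all genes tested, 9.07% and 9.62% did so. Libraries differed in what else they held. Myeloid markers summed to 376 to 1496 CPM in WT and 1068 to 2626 CPM in KO. Myoepithelial markers summed to 1009 to 1696 CPM in WT and 905 to 2587 CPM in KO. Fibroblast markers summed to 972 to 2739 CPM in WT and 675 to 2938 CPM in KO. Milk protein genes took 26.3% to 33.97% of counts in WT and 12.7% to 21.8% in KO, and 10 lymphocyte markers summed to 38.2 to 55.7 CPM in WT and to 406, 65.3, 554 and 123 CPM in KO replicates 1 to 4.

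Short DNA elements through which clock factors are known to act were looked for by their letters close to the starts of these genes, and the stretches of the 5 genes with a match are shown so that the letters found can be read. RefSeq promoter windows (GRCm38.p6; 300 bases, from 250 before a start to 50 after it) were found for 9 of the 10 genes, in 13 windows, and each matched NCBIM37 exactly at 1 place on its chromosome. Both strands were searched for the E-box CACGTG and its variant CACGTT, bound by Arntl with Clock, for the D-box TTANGTAA, bound by Dbp and its relatives, and for TAGGTCA, the core of the element bound by Nr1d1 and Nr1d2. The stretches lie at chr11:68912261-68912340 (plus strand) for *Per1*, chr10:84647830-84647889 (minus strand) for *Cry1*, chr11:98636692-98636751 (minus strand) for *Nr1d1*, chr4:150418915-150418994 (minus strand) for *Per3* and chr7:120351047-120351072 (plus strand) for *Arntl*, all on NCBIM37. The first 4 lie before the start and that of *Arntl* just after it, and capitals mark the elements, read 5′ to 3′ on the strand of the gene, on which CACGTT of the opposite strand appears as AACGTG.
Per1: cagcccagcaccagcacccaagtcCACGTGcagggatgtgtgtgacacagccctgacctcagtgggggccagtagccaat
Cry1: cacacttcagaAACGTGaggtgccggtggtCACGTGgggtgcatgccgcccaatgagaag
Nr1d1: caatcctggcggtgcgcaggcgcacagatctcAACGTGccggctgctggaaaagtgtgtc
Per3: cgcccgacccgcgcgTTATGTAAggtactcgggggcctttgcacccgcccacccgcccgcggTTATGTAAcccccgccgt
Arntl: gcagaaagTAGGTCAgggacggaggt

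*Cry1* held an E-box and its variant in the same stretch, and *Per3* held the D-box at 2 places. Of all 32851 windows, 7.15% held CACGTG, 4.68% CACGTT, 2.32% TTANGTAA and 2.61% TAGGTCA, and a match of letters is a description and not a bound site. None of these letters lay in the windows of *Npas2*, *Clock*, *Nr1d2* or *Dbp*, which says nothing of elements elsewhere in those genes.

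*Dbp*, *Per3*, *Nr1d1* and *Nr1d2* differed together between glands of the same genotype, *Arntl* and *Npas2* ran against them, and for each of these 6 genes the levels of WT and KO libraries overlapped. For *Dbp* the ranges of the genotypes were nearly the same. Beside this variation, *Per2* and *Cry1*, both repressors of the loop, were the 2 clock genes at which every KO library lay below every WT library. So did 9.62% of all genes tested, with 9.07% the other way. With scaling by library size only none of the 10 did, and of all genes tested 2.54% lay below and 25.8% above. The limits taken from the study's methods were an adjusted p under 0.01 and more than 1 in size for the log2 fold change. None of the 10 genes passed them in edgeR's quasi-likelihood test, nor did any other of the 17175 genes tested (0%). The study reported differentially expressed genes at these limits, without naming its test within edgeR. EdgeR's exact test called 426 of the 17175 genes at the same limits, *Per2* and *Cry1* among them. In the plot of levels by library, the order of the libraries can be read gene by gene.

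**Figure D1:**
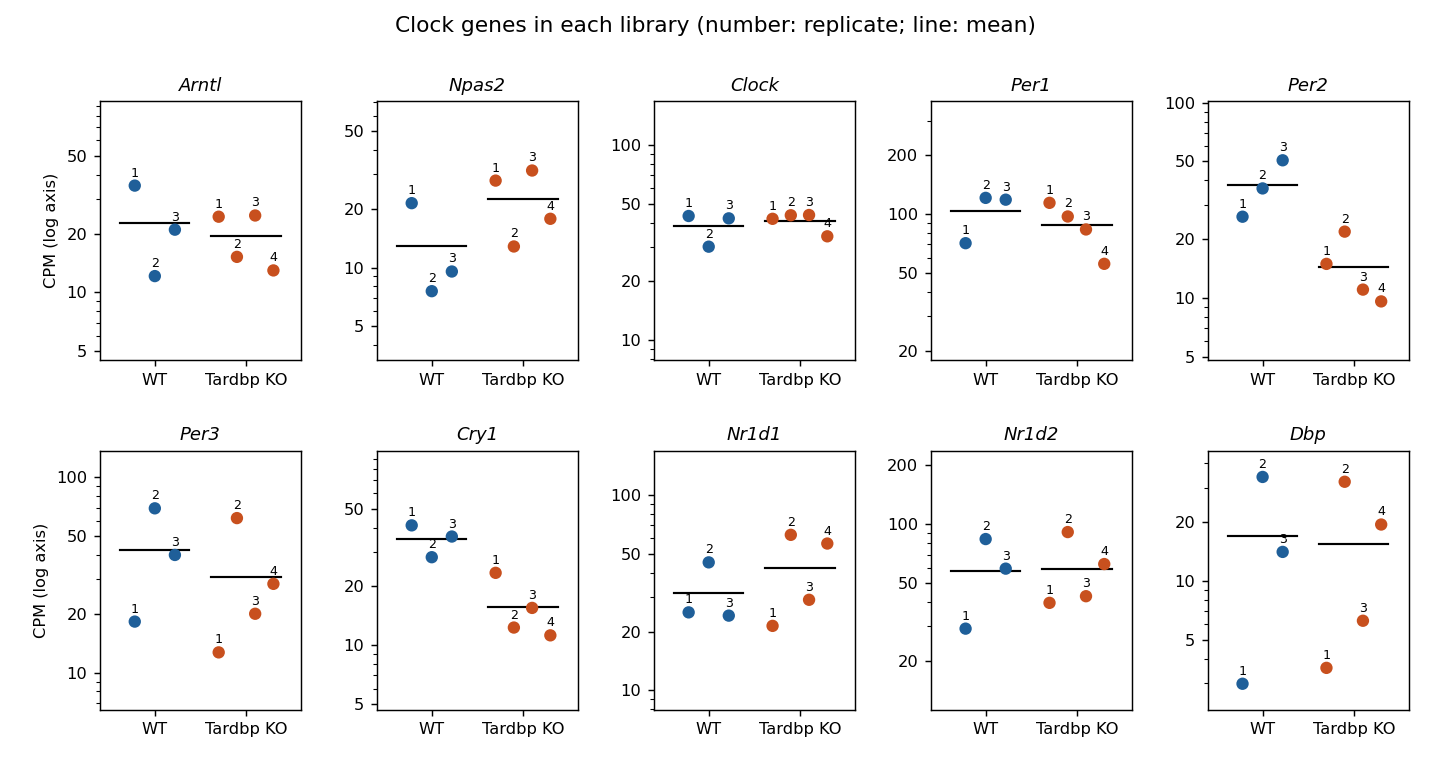
Levels of the 10 clock genes in CPM on a log axis, 1 panel a gene, each spanning the same fold range; points are libraries with their replicate number (WT blue, n = 3; *Tardbp* KO orange, n = 4) and lines are means. *Dbp* runs from 2.97 to 34.02 CPM in WT and from 3.58 to 32.1 CPM in KO, while for *Per2* and *Cry1* all KO points lie below all WT points.

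*Dbp* (ENSMUSG00000059824, chr7:52960458-52965525, plus strand) stood at 2.97, 34.02 and 14.1 CPM in WT replicates 1 to 3. KO replicates 1 to 4 held 3.58, 32.1, 6.24 and 19.4 CPM. Each genotype thus held glands with little and glands with much *Dbp*, 11.5-fold apart in WT and 8.97-fold in KO, where the median gene with a mean of at least 5 CPM differed 1.35-fold and 1.44-fold. The log2 fold change between genotypes was −0.15 with a standard error (SE) of 0.85 and an adjusted p of 0.941 by edgeR's quasi-likelihood test. Of the exon bases of *Dbp*, 16.7% are shared with *Sphk2* on the opposite strand, where the counting left shared reads out.

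*Per3* (ENSMUSG00000028957, chr4:150377761-150418774, minus strand), the *Per* gene least needed for the rhythm itself, stood at 18.2, 69.3 and 40.01 CPM in WT replicates 1 to 3. The values in KO replicates 1 to 4 were 12.7, 61.8, 20.001 and 28.5 CPM. Its lowest and highest libraries in each genotype were those of *Dbp*, and the genotypes overlapped, with a log2 fold change of −0.47 (SE 0.56) and an adjusted p of 0.673 by the same edgeR test.

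*Nr1d2* (ENSMUSG00000021775, chr14:19036568-19071641, minus strand), a repressor of *Arntl*, stood at 29.2, 84.0 and 59.3 CPM in WT replicates 1 to 3. In KO replicates 1 to 4 it stood at 39.6, 91.2, 42.8 and 62.6 CPM. The order of the libraries within each genotype was again that of *Dbp*, and the difference between genotypes was small (log2 fold change 0.04, SE 0.38, adjusted p = 0.969, edgeR).

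*Nr1d1* (ENSMUSG00000020889, chr11:98629246-98636647, minus strand), the closest relative of *Nr1d2*, stood at 25.1, 45.2 and 24.1 CPM in WT replicates 1 to 3. KO replicates 1 to 4 held 21.4, 62.6, 29.1 and 56.5 CPM. WT replicate 2 and KO replicates 2 and 4 were high and the other 4 libraries were low, so that the genotypes overlapped (log2 fold change 0.43, SE 0.39, adjusted p = 0.577, edgeR). The 3′ end of *Nr1d1* runs into *Thra* on the opposite strand, and 8.42% of its exon bases are shared with it.

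*Arntl* (ENSMUSG00000055116, chr7:120350979-120457636, plus strand), the activator without which the loop stops, stood at 35.2, 12.1 and 21.0 CPM in WT replicates 1 to 3. The values in KO replicates 1 to 4 were 24.4, 15.2, 24.8 and 12.96 CPM. WT replicate 1, KO replicate 1 and KO replicate 3, which were the lowest in *Dbp*, were the highest in *Arntl*. The genotypes overlapped, with a log2 fold change of −0.23 (SE 0.36) and an adjusted p of 0.757 by edgeR's test.

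*Npas2* (ENSMUSG00000026077, chr1:39250576-39420079, plus strand), which can stand in for Clock as partner of Arntl, stood at 21.4, 7.57 and 9.54 CPM in WT replicates 1 to 3. In KO replicates 1 to 4 it stood at 27.9, 12.8, 31.4 and 17.8 CPM. The same 3 libraries were high as for *Arntl*. The log2 fold change was 0.81 (SE 0.42) with an adjusted p of 0.303 by edgeR's test, and WT replicate 1 was the single WT library that lay among the KO libraries. KO replicates 1 and 3 also had the most lymphocyte transcripts, and with the level of lymphocyte markers as a covariate the log2 fold change of *Npas2* turned to −0.25 (SE 0.43, adjusted p = 0.869, edgeR; 0.0472 to 0.869 over all alternatives).

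Set as a ratio within each library, which no scaling between libraries can move, log2 of *Arntl* over *Dbp* was 3.57, −1.49 and 0.58 in WT replicates 1 to 3. KO replicates 1 to 4 held 2.77, −1.08, 1.99 and −0.58. The range of the KO libraries lay inside that of the WT libraries. For *Arntl* over *Nr1d1* the log2 ratio was 0.49, −1.90 and −0.20 in WT and 0.19, −2.04, −0.23 and −2.12 in KO, and the genotypes again overlapped. WT replicate 2 and KO replicates 2 and 4 were the 3 lowest libraries of both ratios, WT replicate 1 and KO replicate 1 were the 2 highest, and the plot of deviations gives the values gene by gene.

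**Figure D2:**
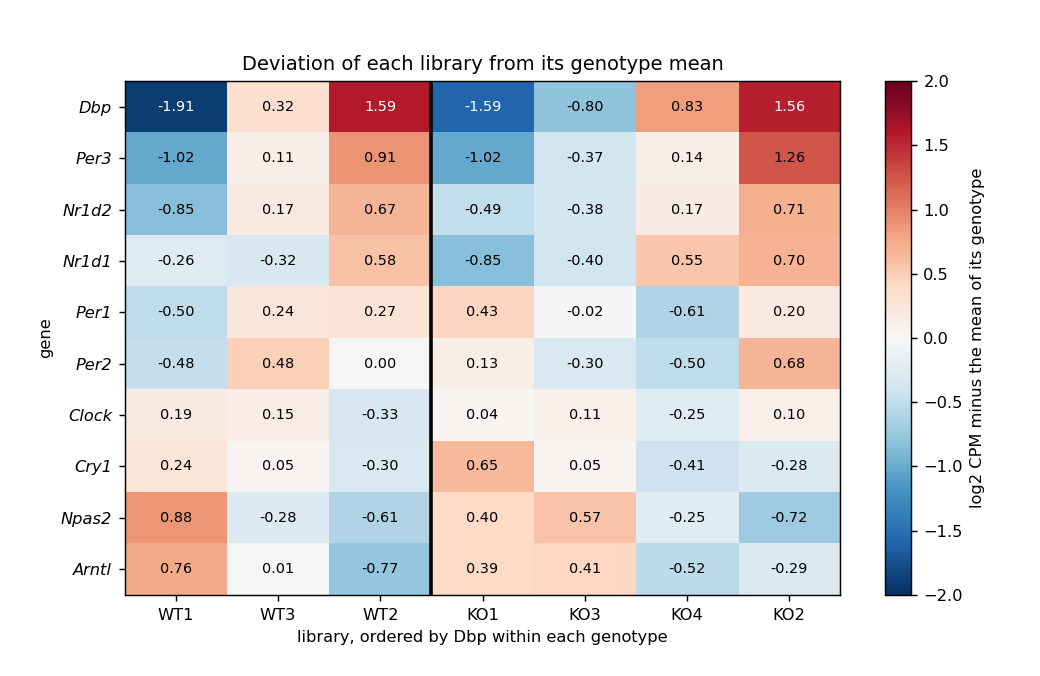
Log2 CPM of each clock gene (rows) in each library (columns, ordered by *Dbp* within each genotype) minus the mean of the library's genotype; red is above and blue below that mean, and the black line parts WT from *Tardbp* KO. From left to right within each genotype *Dbp* goes from −1.91 to 1.59 in WT and from −1.59 to 1.56 in KO, *Per3* and *Nr1d2* follow it, and *Npas2* and *Arntl* go the other way.

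Over the 7 libraries the log2 CPM of *Nr1d2* and *Dbp* had a Pearson's r of 0.979 (exact permutation test, 2-sided p = 0.000397, 0.0179 after Benjamini-Hochberg adjustment over all 45 pairs of the 10 genes). Spearman's rho was 0.964 (exact permutation p = 0.00278, adjusted 0.101), r was 0.985 without the 2 libraries farthest from the median, and r of the deviations from the genotype means was 0.983. This was the only 1 of the 45 pairs with an adjusted p of Pearson's r under 0.05. The pairs named here were chosen after their values were seen, and all values of a library come from the same gland and the same scaling.

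*Arntl* and *Dbp* had an r of −0.921 (exact permutation p = 0.00575, adjusted 0.0732) and a rho of −0.929 (exact permutation p = 0.00675, adjusted 0.101). Without WT replicates 1 and 2, the farthest in *Arntl*, r was −0.843, and for the deviations from the genotype means it was −0.935. The 6 pairs among *Dbp*, *Per3*, *Nr1d1* and *Nr1d2* had r between 0.69 and 0.98, and the 8 pairs of *Arntl* or *Npas2* with one of them had r between −0.92 and −0.40.

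**Figure D3:**
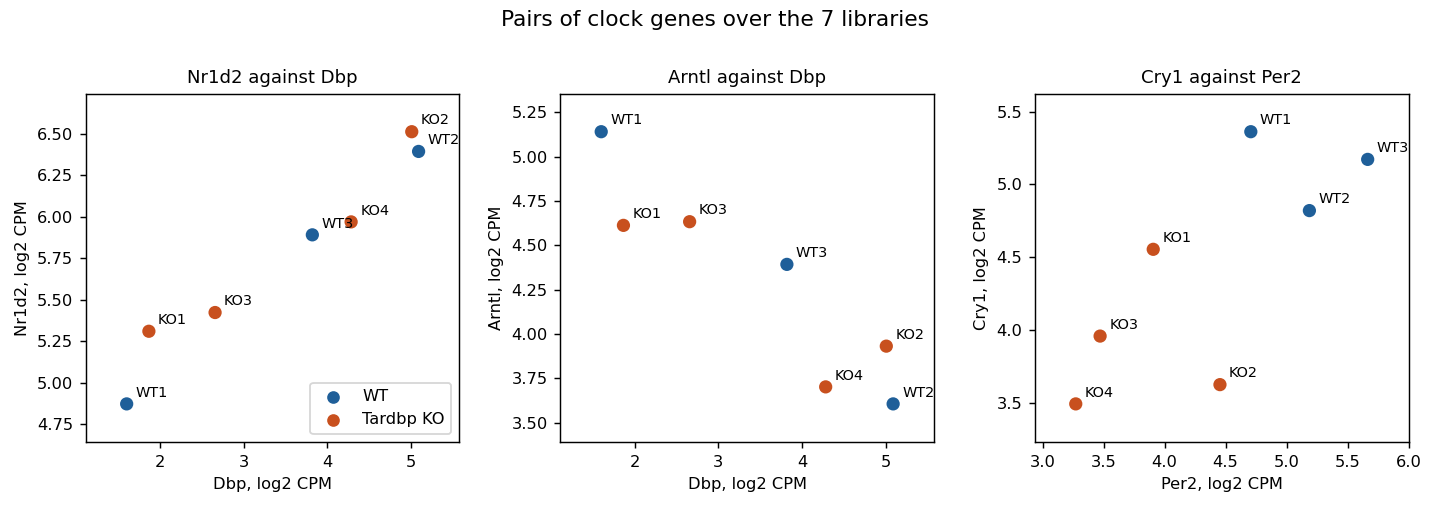
Log2 CPM of *Nr1d2* against *Dbp*, of *Arntl* against *Dbp* and of *Cry1* against *Per2*, 1 point a library (WT blue, *Tardbp* KO orange). WT and KO libraries mix along a single rising line in the first panel and a falling one in the second, while in the third the WT libraries stand at the upper right of the KO libraries.

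The spread between glands of one genotype, as the SD of log2 CPM around the genotype means, had a median of 0.63 over the 10 clock genes and of 0.25 over the 10969 genes with a mean of at least 5 CPM. It was 1.58 for *Dbp*, and 0.337% of genes were more variable. *Per3* followed with 0.96, and *Npas2*, *Nr1d1*, *Nr1d2* and *Arntl* lay between 0.61 and 0.68. *Per2*, *Per1* and *Cry1* came next with 0.51, 0.44 and 0.41, and *Clock* alone lay below the median gene, with 0.23. *Dbp* and the 5 genes that ran with or against it were thus the most variable of the 10, and *Clock*, whose transcript is known to cycle little, the least variable.

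**Figure D4:**
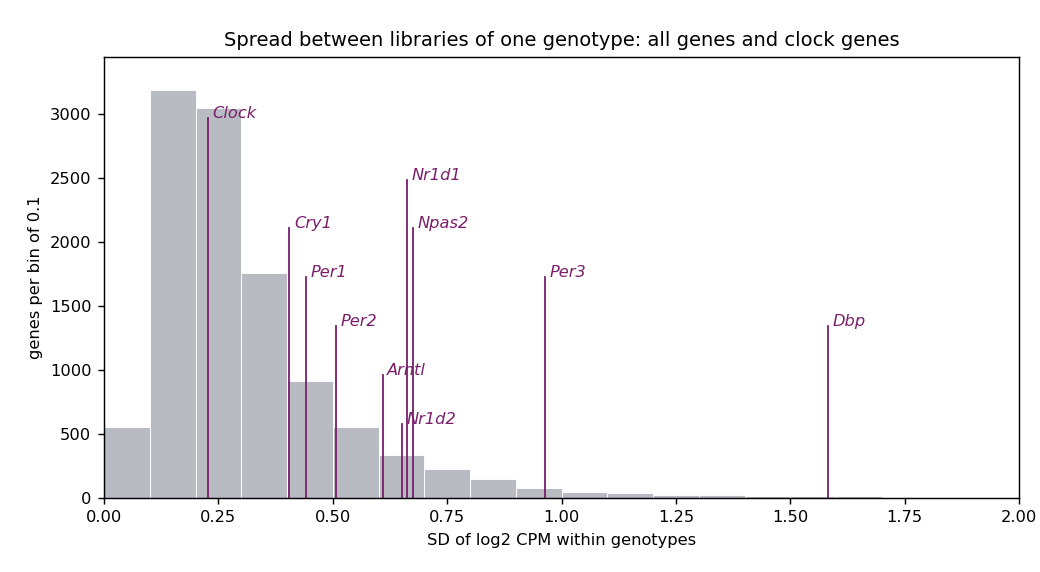
Histogram (bars, bins of 0.1) of the SD of log2 CPM within genotypes over the 10969 genes with a mean of at least 5 CPM, with the 10 clock genes as lines whose heights carry no value; the axis ends at 2. *Clock* lies at 0.23 among the bulk of genes, 9 clock genes lie above the median of 0.25, and *Dbp* lies at 1.58.

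*Clock* (ENSMUSG00000029238, chr5:76639992-76733817, minus strand), the partner of Arntl, stood at 43.2, 30.1 and 42.1 CPM in WT replicates 1 to 3. The values in KO replicates 1 to 4 were 41.8, 43.6, 43.7 and 34.03 CPM. The levels were close in all libraries but WT replicate 2 and KO replicate 4, with a log2 fold change of 0.09 (SE 0.17) and an adjusted p of 0.814 by edgeR's test. *Per1* (ENSMUSG00000020893, chr11:68908719-68923462, plus strand), a repressor that also answers quickly to signals such as glucocorticoids, stood at 71.0, 121 and 119 CPM in WT and at 114, 97.3, 83.5 and 55.7 CPM in KO. WT replicate 1 and KO replicate 4 were its low libraries, and the genotypes overlapped (log2 fold change −0.24, SE 0.27, adjusted p = 0.653, edgeR).

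*Per2* (ENSMUSG00000055866, chr1:93312561-93355907, minus strand), a repressor whose loss disrupts the rhythm, stood at 26.1, 36.4 and 50.7 CPM in WT replicates 1 to 3. In KO replicates 1 to 4 it stood at 14.9, 21.9, 11.03 and 9.60 CPM. Every KO library lay below the lowest WT library, WT replicate 1. The means were 37.7 ± 12.4 CPM (SD, n = 3) and 14.4 ± 5.49 CPM (SD, n = 4), 2.63-fold apart in the fit, with a log2 fold change of −1.39 (SE 0.31). In these whole glands, fewer cells that use a gene and less of its RNA per cell cannot be told apart.

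*Cry1* (ENSMUSG00000020038, chr10:84594447-84647799, minus strand), the partner of the Per proteins and a strong repressor of Arntl with Clock, stood at 41.1, 28.2 and 36.0 CPM in WT replicates 1 to 3. KO replicates 1 to 4 held 23.5, 12.3, 15.5 and 11.2 CPM. Again no KO library reached the lowest WT library, here WT replicate 2. The means were 35.1 ± 6.47 CPM (SD, n = 3) and 15.6 ± 5.53 CPM (SD, n = 4), 2.24-fold apart in the fit, with a log2 fold change of −1.17 (SE 0.26).

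By edgeR's quasi-likelihood test the unadjusted p was 0.00169 for *Per2* and 0.00167 for *Cry1*, and both had an adjusted p of 0.0806, short of the limit. They ranked 359 and 355 by p among all genes, and of all genes tested 10.7% were lower in KO and 10.7% higher at an unadjusted p under 0.05, against 2 and 0 of the 10 clock genes. EdgeR's exact test called both at the same limits (adjusted p = 0.0021 and 0.00312), as it called 1.44% of all genes as lower in KO. DESeq2's Wald test called both too (adjusted p = 0.00154 and 0.003), beside 1.81% of the genes to which it gave an adjusted p. An exact permutation test (2-sided, log2 CPM, all 35 assignments of libraries) gave p = 0.0571 for each gene, and on the CPM scale it gave 0.0286, the smallest p that 3 against 4 libraries allow.

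The count of clock genes without overlap between genotypes, 2 below and 0 above, is near the background of all genes given above. With scaling by library size only, which moves the median log2 fold change of all genes from 0.05 to 0.42, the 2 genes stayed lower in KO (log2 fold changes −1.03 and −0.78), but their libraries overlapped. Under that scaling 2.54% of all genes tested had every KO library below every WT library, and 25.8% had every one above. There *Per2* in KO replicate 2 stood at 25.1 CPM above WT replicate 1 at 20.4 CPM, and *Cry1* in KO replicate 1 stood at 25.8 CPM, just above WT replicate 2 at 25.7 CPM.

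With the log2 CPM of *Dbp* as a covariate, a choice made after the values were seen, the log2 fold change of *Per2* was −1.38 (SE 0.29, adjusted p = 0.0502, edgeR). That of *Cry1* was −1.21 (SE 0.17, adjusted p = 0.0368, edgeR). Without the covariate the values were −1.39 and −1.17. In the fit with the covariate *Npas2* stood at 0.86 (SE 0.17, adjusted p = 0.0472, edgeR), and *Per3* came next with an adjusted p of 0.159. The level of *Dbp* alone does not give the state of the clock, whose part in these differences was not tested. The log2 CPM of *Per2* and *Cry1* had an r of 0.739 over the 7 libraries (exact permutation p = 0.0685, adjusted 0.205; rho 0.786, exact permutation p = 0.048, adjusted 0.24), which fell to 0.505 without WT replicate 3 and KO replicate 4. For the deviations from the genotype means r was −0.0045. Within genotypes the deviations of *Cry1* ran with those of *Arntl* (r = 0.799) and against those of *Dbp* (r = −0.863), whereas those of *Per2* had an r of 0.433 with *Dbp*.

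Lymphocyte markers, milk protein genes and sequencing lanes also differed between the genotypes. Without KO replicates 1 and 3, rich in lymphocyte transcripts, the log2 fold change was −1.26 for *Per2* and −1.57 for *Cry1*. With lymphocyte markers as a covariate it was −0.89 (SE 0.44, adjusted p = 0.592, edgeR) and −1.74 (SE 0.36, adjusted p = 0.575, edgeR). Over all alternatives with a test the adjusted p ranged from 0.00154 to 0.592 for *Per2* and from 0.003 to 0.575 for *Cry1*. Within lane 4, the only lane with both genotypes (WT replicate 2, KO replicates 3 and 4), it was −1.82 for *Per2* and −1.08 for *Cry1*, with no test. The part of the hour of collection in these differences was not tested.

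Over the 10 clock genes the log2 fold change was negative for 6 and positive for 4, with a median of −0.19, against 0.05 over all genes tested. The plot of fold changes sets them beside 2 further lists of clock genes.

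**Figure D5:**
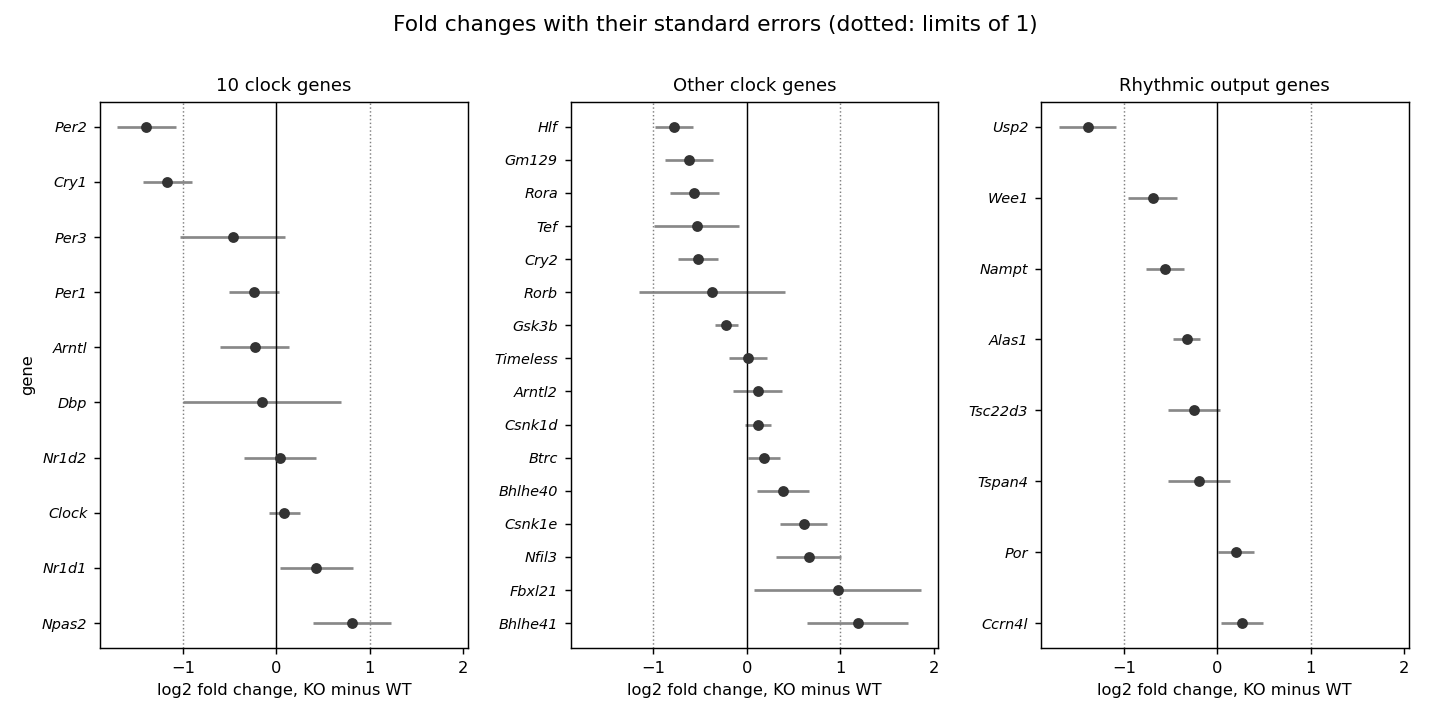
Log2 fold changes (*Tardbp* KO minus WT; bars are standard errors from the fit over all genes, 3 against 4 libraries) of the 10 clock genes, of other clock genes and of 8 rhythmic output genes, with dotted lines at the limits of 1. *Per2*, *Cry1* and *Usp2* lie below −1, *Bhlhe41* lies above 1 (1.19, SE 0.54), and the bar of *Dbp* is the widest among the 10.

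Compared per length of transcript, as median RPKM (CPM per kilobase of exon), *Per1* was the highest clock gene in both genotypes, at 21.1 in WT and 16.1 in KO. In WT, *Cry1* (11.9) and *Nr1d2* (11.8) came next, then *Nr1d1* (8.03), *Arntl* (7.16), *Per2* (6.23), *Dbp* (4.77), *Clock* (4.76), *Per3* (4.16) and *Npas2* (1.99). In KO the order below *Per1* was *Nr1d1* (13.7), *Nr1d2* (10.5), *Arntl* (6.77), *Clock* (4.84), *Npas2* (4.76), *Cry1* (4.62), *Dbp* (4.36), *Per3* (2.52) and *Per2* (2.22). *Per2* and *Cry1* took lower places in KO than in WT. The ranges of neighbours in these orders overlapped within each genotype. Overlap of ranges does not compare 2 genes library by library, and whether neighbours differed was not tested.

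Of 18 other clock genes, all tested, 3 were lower and 2 higher in KO at an unadjusted p under 0.05 (median log2 fold change 0.06). Among all genes tested, 10.7% were lower and 10.7% higher at that limit. None of the 18 passed both limits in the quasi-likelihood test, as no gene did. Nor did any of them in the exact test, which called 426 of 17175 genes. *Hlf*, a relative of *Dbp* that binds the same D-box, stood at 206, 139 and 196 CPM in WT and at 106, 131, 78.7 and 104 CPM in KO. Every KO library lay below every WT library, as in 9.62% of all genes tested. The log2 fold change was −0.78 (SE 0.21) with an adjusted p of 0.0953 by edgeR's quasi-likelihood test. The log2 fold changes were −0.52 for *Cry2*, the second cryptochrome gene and 0.61 for *Csnk1e*, a kinase of Per proteins, with adjusted p of 0.203 and 0.207 by the same edgeR test. The third of the lower genes was *Gm129* (now *Ciart*, a repressor of Arntl with Clock), at −0.62 and with all KO libraries below all WT libraries (adjusted p = 0.213, edgeR).

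*Tef*, the other close relative of *Dbp*, behaved otherwise than *Hlf*. It stood at 39.3, 101 and 94.9 CPM in WT replicates 1 to 3 and at 27.7, 99.7, 35.9 and 52.5 CPM in KO replicates 1 to 4, low in the libraries that were low in *Dbp* (r = 0.875 over 7 libraries). Among the genes with clock ties whose values were looked at for this purpose, *Tspan4* (r = 0.893) also ran with *Dbp*, and *Nfil3*, a repressor that competes for the D-box, ran against it (−0.771). Among 10959 genes *Tef* ranked 80 and *Tspan4* 51 from the highest r with *Dbp*, and *Nfil3* ranked 234 from the lowest. *Hlf* (r = −0.01), *Wee1* (r = −0.17) and *Usp2* (r = 0.24) did not follow *Dbp*. Others looked at included *Ccrn4l* (r = −0.760, rank 273 from the lowest), *Bhlhe41* (0.628), *Cry2* (0.627) and *Tsc22d3* (−0.499). All these genes were named after their values were seen, and the correlations are given as descriptions.

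Of 8 rhythmic output genes, all tested, 4 were lower and 0 higher in KO at an unadjusted p under 0.05 (median log2 fold change −0.29). Among all genes tested, 10.7% were lower and 10.7% higher at that limit. *Usp2*, a deubiquitinase gene switched on by Arntl with Clock, stood at 20.9, 19.6 and 41.1 CPM in WT and at 8.09, 12.3, 8.19 and 13.02 CPM in KO. No KO library reached a WT library, as in 9.62% of all genes tested. The log2 fold change of −1.39 (SE 0.30) had an adjusted p of 0.0793 by the quasi-likelihood test and of 0.00172 by edgeR's exact test. The exact test called this gene alone of the 8, and 1.44% of all genes as lower in KO. *Nampt* of NAD synthesis, the cell cycle kinase gene *Wee1* and *Alas1* of heme synthesis had log2 fold changes of −0.56, −0.69 and −0.33, with adjusted p of 0.167, 0.175 and 0.233 (edgeR).

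Genes that answer to temperature, glucocorticoids or acute stimuli can also set or follow the clock. Of 8 temperature-responsive genes 1 was lower and 0 higher in KO at an unadjusted p under 0.05 (*Hsph1*, log2 fold change −0.55, adjusted p = 0.182, edgeR), with a median of −0.04. Among all genes tested, 10.7% were lower and 10.7% higher at that limit. *Cirbp*, a cold-inducible RNA-binding protein gene, stood at 25.9, 58.0 and 24.7 CPM in WT and 48.4, 57.8, 61.3 and 60.6 CPM in KO. Its genotypes overlapped through WT replicate 2 (log2 fold change 0.66, adjusted p = 0.238, edgeR). Of 6 glucocorticoid-induced genes none passed an unadjusted p of 0.05, with a median of −0.16 and a lowest adjusted p of 0.316 (edgeR).

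Of 7 immediate early genes 3 were higher and 0 lower in KO at an unadjusted p under 0.05, with a median log2 fold change of 1.01. Among all genes tested, 10.7% were higher and 10.7% lower at that limit. *Junb* stood at 26.8, 64.8 and 47.7 CPM in WT and at 202, 103, 92.96 and 154 CPM in KO (log2 fold change 1.57, SE 0.36, adjusted p = 0.082, edgeR). *Fos* stood at 20.6, 34.5 and 22.8 CPM in WT and at 46.7, 69.0, 44.9 and 112 CPM in KO (log2 fold change 1.39, SE 0.35, adjusted p = 0.0887, edgeR). Both genes, which encode subunits of AP-1, had every KO library above every WT library, as did 9.07% of all genes tested. Both were called by edgeR's exact test, which called 179 of 17175 genes as higher in KO. *Egr1* was the third, with a log2 fold change of 1.02 and an adjusted p of 0.134 (edgeR), while *Per1*, which is itself an early gene in other settings, had the value of −0.24 given above.

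Among the 10959 tested genes with a mean of at least 5 CPM outside the 10 clock genes, those most like *Arntl* over the 7 libraries were *Dcp2*, *Lbr*, *Acsl5*, *Heatr5a* and *Ddx18* (r from 0.969 to 0.988), and those most opposed to it were *Gpi1*, *Trmt1*, *Lrrc68*, *Mzt2* and *Slc18a1* (r from −0.975 to −0.964). *Gpi1*, of glycolysis, stood at 182, 328 and 239 CPM in WT replicates 1 to 3 and at 223, 296, 250 and 337 CPM in KO replicates 1 to 4. For *Dbp* the most alike were *Lpin3*, *Fzd6*, *Col9a3*, *Alg14* and *Lgals3bp* (r from 0.954 to 0.983) and the most opposed *Unc5b*, *Ikbke*, *Snx4*, *Ddx18* and *Nup93* (r from −0.975 to −0.971). *Ddx18*, an RNA helicase gene, stood in both groups, with *Arntl* and against *Dbp*. These are the extremes of a ranking over 7 libraries and are given as descriptions.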

How the data were processed

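RNA of mammary glands at L1 (3 WT, 4 *Tardbp* KO libraries) was extracted with Trizol and sequenced from paired-end TruSeq libraries. The authors mapped reads to mouse NCBIM37 with STAR (2.4.2a in the study's methods, 2.5.2a and mm9 in the submitters' processing notes) and deposited whole-number counts per gene from featureCounts 1.4.6-p5 with GENCODE vM1. The file's command line sets no option for strand, pairs or multimapping reads, so that both strands were counted together, mates singly, and reads over several genes not at all. It also names 1 more library, which was not analysed here. All 37310 genes had the coordinates of the annotation used here. Whether a library pools several mice is not given in the sources used here, and p-values measure the spread between these libraries.

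Without the 37 mitochondrial and 580 ribosomal genes, and with a minimum of 5 counts required in 4 or more libraries, 17175 genes remained for edgeR 4.0.16 (R 4.3.3; TMM, quasi-likelihood test, Benjamini-Hochberg adjustment), called by the limits of the study's methods. The study does not name its test within edgeR. Standard errors are the absolute log2 fold change over the square root of F. CPM are counts over TMM-scaled library sizes, and log2 CPM have a prior count of 2. Fits were tested on simulated data. Exact permutation tests were computed with numpy 2.4.6, with ranks and the adjustment over pairs from scipy 1.17.1. Alternatives included edgeR's exact and likelihood ratio tests and DESeq2 1.42.0.

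The 10 genes and all lists were chosen with earlier results of these data known. Named were the 10 genes, *Tardbp*, up to 4 genes a list by lowest unadjusted p, and, for *Arntl* and *Dbp*, the 5 genes with the highest and the 5 with the lowest Pearson's r over the libraries. Genes named outside this rule (*Gm129*, *Tef*, *Tspan4*, *Nfil3*, *Bhlhe41*, *Ccrn4l*, *Tsc22d3*) were chosen after their values were seen. Promoter windows are RefSeq's for GRCm38.p6, and *Per2* is not among them. Some genes of the lists are counted but not reported by name here.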

Additional observations from a re-analysis of the deposited data

How the results depend on the processing

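The direction of *Per2*, *Cry1* and *Nr1d1* was kept in all 25 alternatives with a test, and within lane 4, with no test, *Nr1d1* stood at −0.081. Of 259 values of single clock genes under alternatives, 238 had the sign of the value reported and 21 the opposite sign, 18 of them in a fit with a test and 3 within lane 4 (*Arntl* 0.64, *Nr1d2* −0.67 and *Nr1d1*). *Per2* and *Cry1* became calls in 3 other tests, 6 values in all. With edgeR's exact test, its likelihood ratio test and DESeq2's Wald test, 426, 464 and 572 genes were called, 2 of them clock genes each time. With no filter on low counts, with *Dbp* as a covariate (added after the data were seen) and at an adjusted p under 0.05, with or without the fold limit, 1 gene was called. With library size only, the values were 0.19 for *Arntl*, 0.12 for *Per1* and 0.15 for *Dbp*. There 0 clock genes had groups that did not overlap, against 2.54% of all genes lower and 25.8% higher in KO. With lymphocyte markers as a covariate the values were −0.25 for *Npas2*, 0.75 for *Per3* and 1.66 for *Dbp*, and *Nr1d1* went from 0.43 to 1.36 (unadjusted p = 0.0074, adjusted 0.575, edgeR). Without KO replicates 1 and 3 the values were 0.084 for *Per3* and 0.59 for *Dbp*. With each library left out in turn, log2 fold changes ranged from −0.54 (without WT replicate 2) to 0.23 (without WT replicate 1) for *Arntl*, from −0.064 (without WT replicate 2) to 0.18 for *Clock*, from −1.06 to 0.076 (without WT replicate 2) for *Per3*, from −0.28 (without WT replicate 1) to 0.42 for *Nr1d2* and from −0.81 to 0.84 (without WT replicate 2) for *Dbp*. Without a change of sign, the ranges were 0.54 to 1.39 (without WT replicate 1) for *Npas2*, 0.18 (without KO replicate 2) to 0.78 (without WT replicate 2) for *Nr1d1* and −0.45 (without WT replicate 1) to −0.09 (without KO replicate 4) for *Per1*. *Nr1d2* was also negative without KO replicate 2 or 4, and *Dbp* positive without KO replicate 1 or 3. The number of clock genes without overlap ranged from 2 to 4 of the 10. Of all genes tested, 10.6% (without KO replicate 3) to 17.6% (without WT replicate 2) then lay below. The shares above were 10.1% to 19.6%, at the same 2 libraries. Without WT replicate 1, *Per1* was lower and *Npas2* higher in all KO libraries, as 11.5% of all genes were in each direction. The cause of these changes was not tested. The spread between glands sets the precision here, with a standard error of 0.85 for *Dbp* in the fit reported.

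Over all genes, the deviations of same-numbered libraries had r of 0.33 and 0.184 for replicates 1 and 2, the 2 highest of the 9 combinations. WT replicate 2 with KO replicate 3 was close behind, at 0.182. For replicate 3 r was −0.12, and it did not correlate best with its own number. Since not every pair was over 0.1 and no label ties the numbers to a shared day or litter, the numbers were not taken to pair the glands. In the clock genes, *Dbp* was low in both replicates 1 and high in both replicates 2. With a replicate block over replicates 1 to 3, 0 genes were called and log2 fold changes were −1.26 for *Per2* (adjusted p = 0.0716, edgeR) and −1.09 for *Cry1* (adjusted p = 0.036, edgeR). For *Dbp* it was −0.36 (SE 0.30, adjusted p = 0.501, edgeR) and for *Per3* −0.58 (SE 0.20, adjusted p = 0.138, edgeR), where the same libraries without the block gave SEs of 0.96 and 0.63. Without the block *Nr1d2* stood at −0.0066.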
